A study of Rattus norvegicus with 8 samples.

Results

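Peroxisomes are small organelles bounded by a single membrane, in which very long and branched fatty acids are shortened, ether lipids begin and hydrogen peroxide is made and broken down. Their matrix enzymes are folded in the cytosol and carried in whole by receptors of the PEX group, while other PEX proteins insert the membrane proteins or divide the organelle. In heart muscle, where mitochondria carry most of the fuel oxidation, peroxisomes are few and small and are best known for supplying plasmalogens, the ether phospholipids of cardiac membranes.

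The genes described here are the PEX and PXMP genes, the ACOX and ABCD families and a fixed set of peroxisomal enzymes and carriers, found by gene symbol on the array. In all, 35 genes of 14217 with a single symbol were found, read by 46 probe sets. Each gene was taken at the probe set with the highest mean over the 8 arrays, 25 genes having 1 probe set and 10 several. The set was chosen because Pxmp4 is higher after doxorubicin in these same hearts. The values of its members are therefore a description. Which members passed the threshold used for all genes is stated, with no p-value, and is no independent evidence. A few symbols carry the name without the organelle. ABCD4 is known as a lysosomal transporter of vitamin B12 metabolism, and PEX5L, a relative of the import receptor PEX5, is known from brain as a partner of pacemaker channels.

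The hearts came from male Wistar rats of about 300 g. Perfusion lasted 2 h in Langendorff mode, where fluid driven back down the aorta of the isolated organ enters its coronary arteries, and the perfusate was not reused. The perfusate held no drug in 4 control hearts and 2 µM doxorubicin, an anthracycline that intercalates into DNA and poisons topoisomerase II, in the other 4. Total RNA of each heart was read on an Affymetrix array of its own, and the 4 hearts of each group are labelled as biological replicates. An isolated heart has no circulating blood, liver or nerve supply, so only the early response of the organ itself is covered.

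Values are log2 of the deposited intensity, and precision is limited by there being 4 arrays in each group. The heart muscle genes Myh6, Tnnt2, Tnni3, Myl2 and Pln had a summed intensity of 76333 to 77788 in control and 75861 to 79752 in doxorubicin hearts. The summed intensity of 4 atrial markers ranged far more, from 1214 to 10284 in control hearts and from 1441 to 20375 in doxorubicin hearts, with doxorubicin heart 4 highest. That heart also had the highest summed intensity of 7 fat markers, at 6847 against 3968 to 5486 in the other 7 hearts. Bright genes weigh most in such a sum, and the fat markers did not all rank the hearts alike. Cidea was highest in doxorubicin heart 4 (10.98 log2), but Fabp4 in doxorubicin heart 1 (11.83 log2, heart 4 at 11.79 log2). In whole-heart RNA, fewer cells of a type and less RNA per cell cannot be told apart. The hybridization controls, foreign transcripts spiked into each array, were read by 18 probe sets. They averaged 10.32 ± 0.17 log2 on the 4 control arrays but 10.02 ± 0.08 log2 (SD) on the 4 doxorubicin arrays. Each control array (10.21 to 10.57 log2) lay above each doxorubicin array (9.97 to 10.13 log2). A fit that holds them as a covariate is given below, but it cannot tell their part from that of doxorubicin.

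Pxmp4 and Slc25a17 are the members with the highest and the lowest difference, and the 250 bases before their RefSeq start are shown because the Pxmp4 window is dense in CCAAT. Pxmp2, whose name but not whose value goes with Pxmp4, is shown for comparison. The windows lie on GRCr8 at chr3:163570830-163571079 (minus strand) for Pxmp4, chr7:114767164-114767413 (minus strand) for Slc25a17 and chr12:52053701-52053950 (plus strand) for Pxmp2. All read 5′ to 3′ on the strand of the gene, and capitals mark CCAAT on either strand (ATTGG when reversed) and the GC box GGGCGG on either strand (CCGCCC when reversed).
Pxmp4: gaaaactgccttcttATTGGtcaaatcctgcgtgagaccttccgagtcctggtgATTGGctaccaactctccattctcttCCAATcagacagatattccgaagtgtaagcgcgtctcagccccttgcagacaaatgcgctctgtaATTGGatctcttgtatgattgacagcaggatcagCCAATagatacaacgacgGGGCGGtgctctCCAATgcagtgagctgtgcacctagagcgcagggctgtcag
Slc25a17: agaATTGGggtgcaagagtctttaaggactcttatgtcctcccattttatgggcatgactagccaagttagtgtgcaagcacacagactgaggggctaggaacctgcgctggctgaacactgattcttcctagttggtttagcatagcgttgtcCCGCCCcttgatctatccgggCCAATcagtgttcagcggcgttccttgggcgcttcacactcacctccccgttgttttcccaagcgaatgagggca
Pxmp2: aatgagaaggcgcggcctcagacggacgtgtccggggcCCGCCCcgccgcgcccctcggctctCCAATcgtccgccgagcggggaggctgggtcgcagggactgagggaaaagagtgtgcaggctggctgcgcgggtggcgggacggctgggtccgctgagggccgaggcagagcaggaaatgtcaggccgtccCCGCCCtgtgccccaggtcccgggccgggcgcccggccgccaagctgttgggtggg
The Pxmp4 window held 6 CCAAT matches and 1 GC box, at 53 bases before the start. The Slc25a17 window held 2 CCAAT matches and 1 GC box, and the Pxmp2 window 1 CCAAT match and 2 GC boxes.

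Promoters were found for 31 of the 35 members. Windows with 6 or more CCAAT matches were rare, 11 of 27456 RefSeq promoters (0.0401%), and Pxmp4 was the only member among them. Acox2, Pex16 and Slc25a17 had 2 matches, and no other member had more than 1. In these 250 bases, at least 1 CCAAT was present in 13 of 31 members (34.3% of all promoters), and over the full window of 300 bases, which runs 50 bases past the start, the GC box in 24 of 31, or 77.4% (34.9% of all). The members' windows also had more G and C, with a median of 60.0% against 52.0% over all promoters. All promoters include those of genes not measured here, and GC box and G and C shares of measured genes alone were not computed. The hexamer AGGTCA, which nuclear receptors such as the PPARs read, was present in 6 of 31 (15.7% of all) on either strand, in Abcd2, Agps, Amacr, Dao, Hsd17b4 and Pex11g. Its direct repeat with 1 base between, AGGTCANAGGTCA, was in none of the 31 and in 0.0583% of all. CACGTG was in none (6.65% of all), TATAAA in 3 (14.3%), TGANTCA in Pex10 (7.33%) and the p53 half-site in Abcd2 (7.89%). Such matches describe letters in a short window and say nothing of binding.

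Measured genes with CCAAT-rich windows were called in both directions. Among 11733 measured genes with a promoter, 0.827% were called higher and 2.05% lower by limma (adjusted p under 0.05 over all probe sets). Of 123 measured genes with at least 4 CCAAT matches, 3 were called higher, Pxmp4 itself among them, and 3 lower. The median difference of the 123 was 0.04 log2 against 0.0085 over all 11733. Of the 6 measured genes with at least 6 matches, Pxmp4 was the only one called higher, and Arrdc4, an arrestin-domain gene of glucose uptake control, fell by 1.64 (adjusted p = 0.00264). Got1, Cdk2ap2, Arid4a and Paip2b had differences of -0.0080, 0.29, -0.11 and -0.07 log2. These genes were picked after the count in Pxmp4 was seen.

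Across the set, a single gene stood far above zero, a single gene clearly below, and the others lay close to it. In the limma fit over all probe sets, Pxmp4 was above and Slc25a17 below control past the threshold of adjusted p under 0.05 (here "called"), which for Pxmp4 the choice of the set had fixed, and 33 of 35 members were not called. Among all 14217 genes, 2.97% were called, 0.802% higher and 2.17% lower, and among all probe sets 2.21%, beside 3 of the 46 member probe sets, and since the set was chosen on this comparison nothing is read from its own share. The median difference over the 35 members was 0.03 log2, against 0.0063 over all genes. Of the 35, 21 had positive and 14 negative differences (60.0% positive, against 51.9% of all genes). Apart from Pxmp4 and Slc25a17, the other 33 differed by -0.18 to 0.21 log2. By the probe set with the highest mean, their 95% intervals ran at most from -0.53 (Far1) to 0.43 (Crot). For each of the 33 this interval held no change of 1.5-fold or more. The interval of a second Crot probe set, -0.16 to 0.65, did reach past 1.5-fold.

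**Figure D1:**
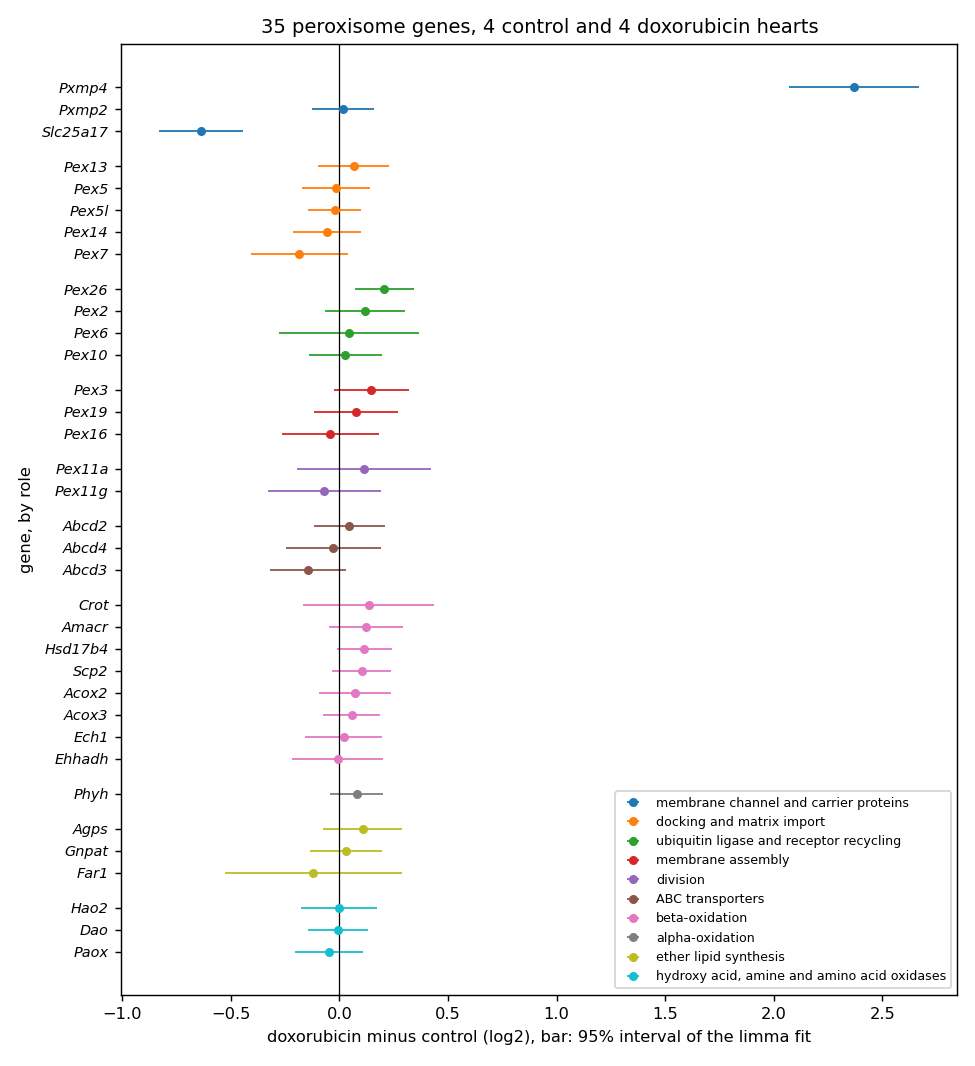
The horizontal axis gives the doxorubicin minus control difference in log2 for each of the 35 genes, with the 95% interval of the limma fit, and the vertical axis lists the genes by role (n = 4 hearts per group). Pxmp4 lies at 2.37 and Slc25a17 at -0.64, and the other 33 genes lie between -0.18 and 0.21.

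Pxmp4 and Slc25a17, the genes that stood apart, are described here with Pxmp2 as membrane proteins, and the set was chosen because of Pxmp4. Pxmp4 encodes a multi-pass protein of the peroxisomal membrane, related to the Tim17, Tim22 and Tim23 import channel proteins of mitochondria. It lay at 5.04, 5.22, 4.56 and 4.74 log2 in control hearts 1 to 4 and at 7.26, 7.33, 7.09 and 7.35 log2 in doxorubicin hearts 1 to 4. Every doxorubicin heart was above every control heart, with 1.87 log2 between the nearest hearts. The means were 4.89 ± 0.30 and 7.26 ± 0.12 log2 (SD, n = 4 each), a 5.17-fold higher level (2.37, SE 0.13). The second Pxmp4 probe set lay at 5.16, 5.02, 5.22 and 5.47 log2 in control hearts and at 6.70, 6.47, 6.84 and 6.41 log2 in doxorubicin hearts. It too showed no overlap, with a smaller difference of 1.39 (SE 0.12), or 2.62-fold. In control hearts the second probe set had the higher mean, 5.22 against 4.89 log2, and in doxorubicin hearts the lower, 6.61 against 7.26 log2. The first was therefore taken through its doxorubicin values, so the choice of probe set favoured the larger fold. The order of the hearts within a group differed between the probe sets. Doxorubicin heart 4 was highest by the first and lowest by the second, and control heart 3 was lowest by the first but not by the second. With the hybridization controls as a covariate the Pxmp4 difference was 2.05, and without any single heart it ranged from 2.26 to 2.48. With an offset of 16 it was 1.88, and with the mean of its probe sets 1.88, so the size of the fold depends on the processing.

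Slc25a17 encodes a carrier of the peroxisomal membrane that brings in coenzyme A, FAD and NAD+, the cofactors of the matrix enzymes. It lay at 6.73, 7.09, 6.89 and 6.87 log2 in control hearts 1 to 4 and at 6.17, 6.27, 6.18 and 6.40 log2 in doxorubicin hearts. Each doxorubicin heart was below each control heart, by 0.33 log2 between the nearest. The mean was 1.55-fold lower, at 6.26 ± 0.11 against 6.90 ± 0.15 log2 (SD, n = 4 each; difference -0.64, SE 0.09). The difference stayed between -0.69 and -0.57 without any single heart and was -0.72 with the hybridization covariate, where it no longer passed the threshold. Pxmp2, which forms a channel for small solutes in the same membrane, had 10.08 ± 0.08 log2 in control and 10.1 ± 0.07 log2 in doxorubicin hearts (difference 0.02, SE 0.06). Pxmp2 and Pxmp4 share a name but belong to different protein families.

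**Figure D2:**
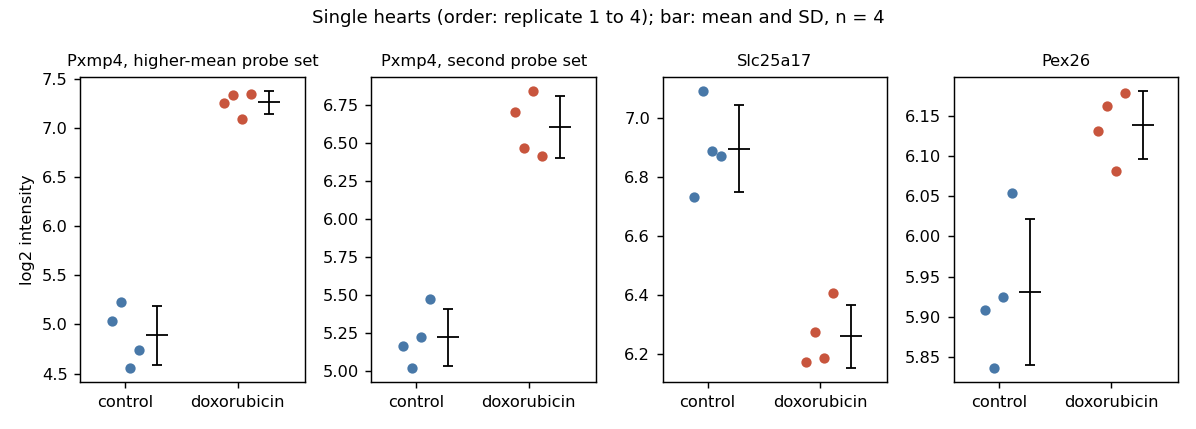
Points are log2 intensities of single hearts, 4 control (blue) and 4 doxorubicin (red), for both Pxmp4 probe sets, Slc25a17 and Pex26, and bars give the mean and SD (n = 4). In all panels the groups do not overlap, with Pxmp4 and Pex26 higher and Slc25a17 lower in doxorubicin hearts, and each panel has its own scale.

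Genes next to Pxmp4 on the chromosome did not share its difference. Of the 5 nearest measured genes on each side in RefSeq order, none was called by limma, and at an unadjusted p under 0.05 only Zfp341, the nearest measured gene on that side, stood below the others, at -0.19 (SE 0.06, adjusted p = 0.209). E2f1, a cell cycle transcription factor and the nearest gene on the other side, stood at 0.14 (SE 0.11, adjusted p = 0.686). The other 8 lay between -0.13 (Cbfa2t2) and 0.02 (C3h20orf144). Cdk5rap1, Chmp4b and Asip had a group mean under 4.16 log2, the level below which the dimmest 25% of probe sets lie. Around Slc25a17, a region looked up after its value was seen, none of 10 measured neighbours was called by its representative probe set, with differences of -0.23 (Rbx1) to 0.24 (Xpnpep3). Second probe sets differed there. For St13, an Hsp70 cochaperone gene, the second probe set rose by 0.38 (adjusted p = 0.0253) against 0.10 for the first, and for Rbx1, a cullin ligase subunit gene, the second fell by 0.77 (adjusted p = 0.00391).

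**Figure D3:**
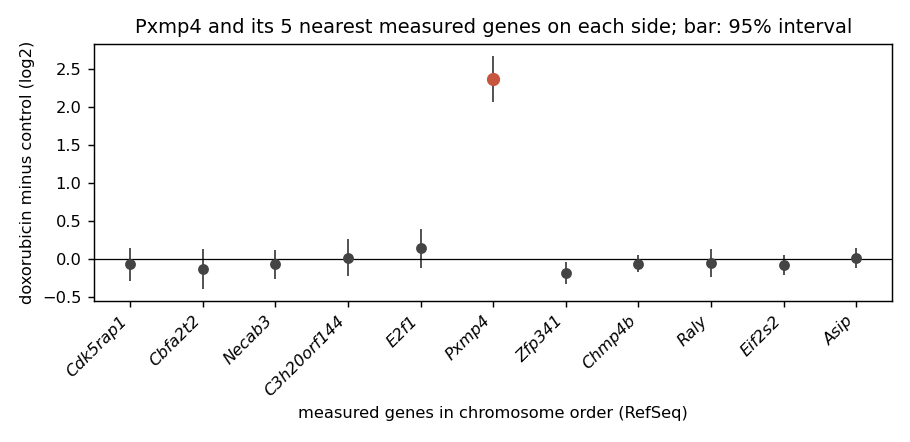
The vertical axis gives the doxorubicin minus control difference in log2 with its 95% interval for Pxmp4 (red) and the 5 nearest measured genes on each side in RefSeq order (n = 4 hearts per group). Pxmp4 lies at 2.37 and its neighbours between -0.19 and 0.14.

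Genes of matrix import stayed near their control level. The docking genes Pex13 and Pex14 had differences of 0.07 and -0.06 log2. Pex5, the receptor for the carboxy-terminal targeting signal that most matrix enzymes carry, stood at -0.01 (SE 0.07), with its second probe set at -0.07. Pex7, the receptor for the rarer amino-terminal signal of enzymes such as PHYH and AGPS, had the lowest value after Slc25a17, -0.18 (SE 0.10), from 6.60 to 6.97 log2 in control and 6.49 to 6.85 log2 in doxorubicin hearts. Those ranges overlap. Pex5l stood at -0.02.

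After import, the receptors are ubiquitinated by PEX2 and PEX10 and pulled out of the membrane by a pair of ATPases that PEX26 anchors. The 4 measured genes of this step, including the ATPase gene Pex6, all had positive differences. Pex26 lay at 5.91, 5.84, 5.92 and 6.05 log2 in control hearts 1 to 4 and at 6.13, 6.16, 6.08 and 6.18 log2 in doxorubicin hearts. The groups did not overlap, but only 0.03 log2 lay between the nearest hearts, and the difference of 0.21 (SE 0.06) was not called under any of the 19 alternatives. Pex2 stood at 0.12 (SE 0.08) by its representative and 0.26 (SE 0.13) by its second probe set, and control heart 4 was lowest by that second probe set, at 6.29 log2. Pex6 (0.04, SE 0.14) varied strongly inside both groups, from 5.14 to 5.67 log2 in control and 5.19 to 5.72 log2 in doxorubicin hearts. Pex10 stood at 0.03.

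PEX3, PEX16 and PEX19 receive and insert new membrane proteins, PXMP4 among the kinds of cargo they serve. Pex3, the docking factor, stood at 0.15 (SE 0.08), with control heart 1 lowest at 7.32 log2 and the other 7 hearts at 7.51 to 7.73 log2. Pex19, the soluble chaperone of membrane proteins, stood at 0.08 (SE 0.09). Pex16 stood at -0.04 by its representative and 0.13 by its second probe set, so its direction rests on the probe set read. None of the 3 was called.

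The PEX11 proteins lengthen peroxisomes before they divide. Pex11a lay at 5.37, 5.44, 4.999 and 5.43 log2 in control hearts 1 to 4 and at 5.30, 5.30, 5.29 and 5.81 log2 in doxorubicin hearts. The mean difference of 0.11 (SE 0.14) came with doxorubicin heart 4 alone above all control hearts and the other 3 below 3 of the 4 controls. The second, dim Pex11a probe set did not show heart 4 apart, at 3.91 log2 among 3.87 to 3.94, and stood at -0.11. Pex11g stood at -0.07 (SE 0.12).

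Of the ABCD transporter genes, none was called. Abcd3, which brings in branched-chain acyl-CoA and bile acid precursors, had the lowest value after Slc25a17 and Pex7, -0.14 (SE 0.08). Its doxorubicin hearts were close together, at 8.36 to 8.43 log2, and its control hearts spread from 8.37 to 8.69 log2. Abcd4, the lysosomal relative, stood at -0.03. Abcd2, a carrier of very long chains, stood at 0.05 with both means under 4.16 log2, where a fold is uncertain.

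The beta-oxidation enzymes gave 7 positive differences of 8, all within 0.13 log2. Hsd17b4 encodes the bifunctional enzyme for very long and branched chains. It lay at 9.99, 10.04, 10.11 and 10.08 log2 in control and at 10.13, 10.14, 10.26 and 10.15 log2 in doxorubicin hearts. The groups did not overlap, by 0.02 log2, and the difference was 0.11 (SE 0.06). Counting Pxmp4, Pex26 and Hsd17b4, 3 of 35 members had every doxorubicin heart above every control heart and 1, Slc25a17, had each below. Over all genes these shares were 5.75% and 4.69%, or 10.4% together. Scp2, the thiolase and lipid transfer protein gene, stood at 0.10 and 0.12 by its probe sets, and Amacr, the racemase of branched acyl-CoA, at 0.12 (SE 0.08). The oxidase genes Acox2 and Acox3, which act on branched chains and bile acid precursors, stood at 0.07 and 0.06. Ech1, an isomerase for unsaturated chains found in peroxisomes and mitochondria, stood at 0.02, and Ehhadh, the other bifunctional enzyme, at -0.0082.

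Crot, which puts shortened chains on carnitine for export to mitochondria, stood apart in single hearts. By its representative probe set it lay at 6.67, 7.03, 6.99 and 6.92 log2 in control hearts 1 to 4 and at 6.90, 6.89, 6.90 and 7.45 log2 in doxorubicin hearts (difference 0.13, SE 0.13). Doxorubicin heart 4 was highest and control heart 1 lowest by this probe set, and also by a second one, at 7.36 and 6.26 log2 (difference 0.25, SE 0.18). Another, dim probe set stood at -0.05. Doxorubicin heart 4 also had the highest summed intensity of the atrial, fat, fibroblast (17393), macrophage (638) and erythroid (241) markers and the lowest of the endothelial ones (2306). Control heart 1 had the lowest atrial (1214), fibroblast (9767) and macrophage (415) sums. The part of these markers in the values of Crot and Pex11a was not tested.

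**Figure D4:**
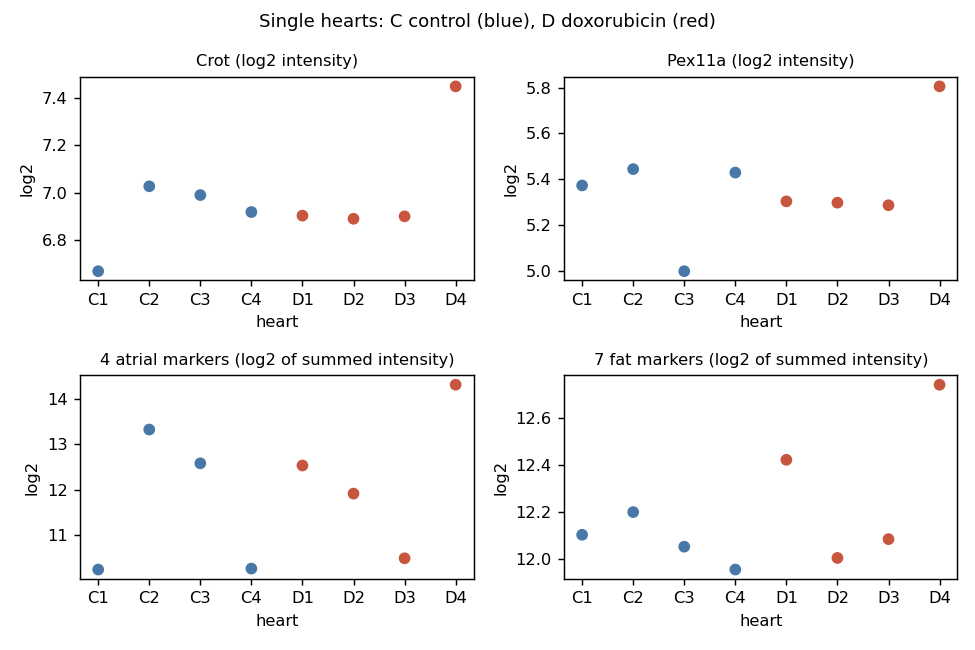
Points are single hearts, C for control (blue) and D for doxorubicin (red), with log2 intensity of Crot and Pex11a above and log2 of the summed intensity of 4 atrial and 7 fat markers below. Doxorubicin heart 4 is highest in all panels, at 7.45 log2 for Crot and 5.81 log2 for Pex11a.

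Phyh, which hydroxylates phytanoyl-CoA at the start of alpha-oxidation, lay at 13.20 to 13.28 log2 in control and 13.26 to 13.40 log2 in doxorubicin hearts (difference 0.08, SE 0.05; second probe set 0.05). Phyh and Pex5l had the smallest spread within groups, an SD of 0.05 log2 each. The median of that SD over the 35 members was 0.11 log2, against 0.12 over all genes. The ether lipid genes Gnpat and Agps, which start plasmalogen synthesis, stood at 0.03 (SE 0.07) and 0.11 (SE 0.08). Far1, which supplies their fatty alcohol, stood at -0.12 (SE 0.18) and was the most variable member, from 5.19 to 6.01 log2 in control hearts and 5.27 to 5.84 log2 in doxorubicin hearts.

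The oxidases of hydroxy acids, polyamines and D-amino acids showed the least difference. Hao2 stood at -0.0015, Dao at -0.0082 and Paox at -0.05. Hao2 and Dao, known from kidney and liver, had both group means under 4.16 log2. With Abcd2 they made 3 of 35 members at that dim level.

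No heart was shifted over the set as a whole. The median deviation of the 35 members from the mean of their own group ran from -0.03 (doxorubicin heart 1) to 0.04 log2 (control heart 1), and that of all genes from -0.0070 to 0.0067.

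Other peroxisomal proteins outside the set, listed by function, showed 2 genes that rose. The list was not restricted to proteins found only in peroxisomes, and its Mpv17 and Mpv17l are counted again below among the relatives of Pxmp2. Of 58 measured of 63 listed, Hacl1 and Idi1 were called higher by limma and none lower, where 0.802% and 2.17% of all genes were. At an unadjusted p under 0.05 by limma, 9 of the 58 were higher and 2 lower. Among all 14217 genes 9.67% were higher and 7.07% lower at that level. These shares, and the called shares of 0.802% and 2.17%, also stand beside the counts of the lists that follow. The median difference of the 58 was 0.07 log2. This list and those that follow were chosen with earlier results of these data known, so their counts are no independent evidence. Hacl1, the lyase that follows PHYH in alpha-oxidation, lay at 6.07, 6.30, 6.10 and 6.25 log2 in control and at 6.72, 6.74, 6.74 and 6.84 log2 in doxorubicin hearts. The groups were apart and Hacl1 rose 1.495-fold (0.58, SE 0.07, adjusted p = 0.00213). It was called without any single heart, and with the hybridization covariate it stood at 0.46 (adjusted p = 0.27).

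Idi1, an isoprenoid enzyme with a peroxisomal targeting signal, lay at 7.45, 7.83, 7.37 and 7.25 log2 in control and at 8.93, 8.56, 8.38 and 8.33 log2 in doxorubicin hearts. It rose 2.11-fold (1.08, SE 0.15, adjusted p = 0.00563), though its second probe set stood at 0.44 (adjusted p = 0.136). With the hybridization covariate the Idi1 difference by the first probe set was 1.13 (adjusted p = 0.256). Acad11 (0.32, adjusted p = 0.0572) and Nudt19 (0.41, adjusted p = 0.12), an acyl-CoA dehydrogenase and a coenzyme A hydrolase gene, did not pass. Acad11 was called by limma without control heart 2 (adjusted p = 0.0276) and without doxorubicin heart 2 (adjusted p = 0.0456). It was also called with repeated quantile normalization (adjusted p = 0.0371), array weights (adjusted p = 0.0325) and the mean of probe sets (adjusted p = 0.0407). The other alternatives did not call Acad11. Catalase, the main peroxide-degrading enzyme of the matrix, lay at 11.27 to 11.35 log2 in control and 11.32 to 11.49 log2 in doxorubicin hearts (0.07, SE 0.06, adjusted p = 0.708).

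PPAR alpha is the nuclear receptor known for driving peroxisomal genes in rodents. Of 20 measured receptors and cofactors of this pathway, Nrip1, a corepressor, fell by 0.78 (SE 0.17, adjusted p = 0.0434) and none was called higher (unadjusted p under 0.05 in 3 higher and 2 lower). Nrip1 lay at 5.56, 5.98, 5.88 and 5.66 log2 in control and at 4.88, 4.94, 4.64 and 5.48 log2 in doxorubicin hearts, heart 4 being nearest to the controls. The Nrip1 call was lost without control heart 2, 3 or 4 or doxorubicin heart 1, 2 or 3, with adjusted p up to 0.139. It was also lost with the hybridization covariate (-0.77, adjusted p = 0.676), with arrays centred on their median (adjusted p = 0.0604) and with the offset of 16 (adjusted p = 0.0694). Rxrg (0.32, but -0.09 by its second probe set), Nr1h3 (0.43) and Ppargc1b (-0.44) did not pass, and Ppara itself stood at 0.09 (SE 0.10, adjusted p = 0.783).

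Of 40 measured PPAR target genes outside the peroxisome, Decr1 and Pdk4 fell and none was called higher (1 higher and 4 lower unadjusted; median 0.04 log2). Decr1, the mitochondrial reductase that clears double bonds from unsaturated acyl-CoA, lay at 12.07, 12.19, 12.19 and 12.23 log2 in control hearts. In doxorubicin hearts it lay at 11.39, 11.35, 11.36 and 11.41 log2, well apart from the controls. Decr1 fell by 0.79 (SE 0.06, adjusted p = 9.04e-05), was called under each of the 19 alternatives and kept the call with the hybridization covariate (-0.78, adjusted p = 0.0212). Its peroxisomal counterpart Decr2 stood at 0.15 (adjusted p = 0.628). Pdk4, a kinase that turns off pyruvate dehydrogenase, fell by 0.78 (adjusted p = 0.00589; with the hybridization covariate -0.70, adjusted p = 0.383). Acot1 (-0.25) and Plin2 (0.23, but 0.01 by its second probe set), a thioesterase and a lipid droplet gene, did not pass. The doxorubicin mean of Acot1, 3.96 log2, lay under the dim level of 4.16 log2.

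**Figure D5:**
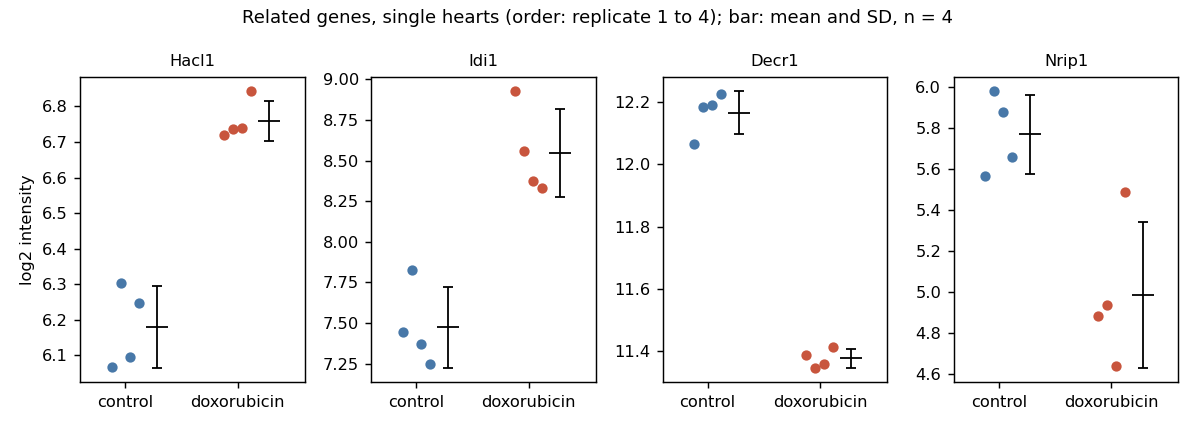
Points are log2 intensities of single hearts, 4 control (blue) and 4 doxorubicin (red), for Hacl1, Idi1, Decr1 and Nrip1, and bars give the mean and SD (n = 4). The groups do not overlap in these panels, with Hacl1 and Idi1 higher and Decr1 and Nrip1 lower in doxorubicin hearts, and each panel has its own scale.

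The protein relatives of the PXMP genes were read next. None of 5 measured Tim17, Tim22 and Tim23 family genes was called by limma (none at an unadjusted p under 0.05), with Timm22 at 0.13, Timm17a at 0.12, Timmdc1 at 0.11 and Ndufa11 at -0.09. Of 3 relatives of Pxmp2, Mpv17l2, known from mitochondrial ribosome assembly, rose by 0.40 (SE 0.08, adjusted p = 0.0363). The Mpv17l2 call was lost without control heart 3 or 4 or doxorubicin heart 1, 2 or 3 (adjusted p up to 0.121), and with the hybridization covariate (0.24, adjusted p = 0.845). In limma it was also lost with repeated quantile normalization (adjusted p = 0.0652) and with the intensity trend (adjusted p = 0.058). Mpv17 stood at 0.14, and Mpv17l at -0.18 by its first and 0.03 by its second probe set.

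No gene passed among 10 measured ether lipid genes outside the set (2 higher and none lower unadjusted) or among 13 genes that insert tail-anchored and other membrane proteins (3 higher and none lower unadjusted), both by limma. Their medians were 0.08 and 0.10 log2. Gpd1 stood at 0.49 (adjusted p = 0.102 by limma) and at 0.45 by its second probe set. Tmem86a stood at 0.34 (its other probe sets at 0.22 and -0.07), Selenoi at 0.28 and Lpcat3 at 0.12 (second probe set 0.03). Get1 stood at 0.30 (second probe set 0.31), Emc1 at 0.24 (its other probe sets at 0.04 and 0.12), Sgta at 0.23 (second probe set 0.03) and Emc3 at 0.11.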

How the data were processed

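Total RNA of 8 hearts was measured on Affymetrix arrays. The deposited table holds intensity values, made by the authors with RMA (background correction, normalization between arrays and probe set summary), as the submitters' processing notes name it. The sources used here give no software or version for it. RMA makes array distributions alike, so a shift shared by most transcripts would not show. The values were linear (array medians 29.9 to 31.0), and log2 was taken without an offset. Of 31099 probe sets, 57 controls were left out and 31042 tested. Symbols came from the platform annotation (20826 probe sets with a single symbol, 436 with several, 9780 with none) and were looked up by gene ID in the RefSeq table of GRCr8, which held 20758 and changed 0 of them. Promoters came from RefSeq on GRCr8, matched by symbol.

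Doxorubicin was compared with control in limma 3.58.1 (R 4.3.3) with lmFit and eBayes on all 8 arrays, without covariates, and Benjamini-Hochberg adjustment over all probe sets, two-sided, called under 0.05. Each difference is in log2, control subtracted from doxorubicin, with the fit's SE. The hearts are called biological replicates, but nothing says how they were paired or batched. Tested on simulated data of 31042 probe sets, the fit called 95 of 100 changed 2-fold and 70 of 100 changed 1.5-fold, with 17 false calls. The simulated noise was drawn independently for each probe set and array, so differences that many genes of a heart share were absent. Fewer probe sets were changed than the 687 called in the data, so these counts need not hold for the real hearts. Figures were drawn with matplotlib 3.10.9.

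The members and lists were chosen with earlier results of these data known. Named were called members, the 8 highest and 8 lowest, members whose probe sets differed by over 0.5, examples of each role, and up to 4 genes of each further list by smallest p; any other gene named was picked with its values in view, among them the neighbours of Slc25a17. The alternatives were: arrays centred on their median or quantile-normalized again, the dimmest 25% of probe sets left out, eBayes with a trend in intensity or in its robust form, array weights, the hybridization controls as covariate, the replicate number as block, another choice or the mean of probe sets, an offset of 16 and leaving out each heart.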

Additional observations from a re-analysis of the deposited data

Results flagged for a closer look

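In 70 groups of 4 hearts (35 genes in both groups), 5 held a heart far from the other 3, its gap to the nearest being past Dixon's critical value as a share of the group's range. Chance flags about 1 in 20 groups. Doxorubicin heart 4 was high for Crot (7.45 log2, the others 6.89 to 6.90) and for Pex11a (5.81 log2, the others 5.29 to 5.30), and doxorubicin heart 3 for Hsd17b4 (10.26 log2, the others 10.13 to 10.15). Control heart 3 was low for Pex11a (4.999 log2, the others 5.37 to 5.44) and high for Pex16 (6.81 log2, the others 6.47 to 6.51).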

How the results depend on the processing

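Over 19 alternatives, Pxmp4, on which the set was chosen, was the 1 member called higher in each, with differences of 1.39 (its less variable probe set) to 2.48, and Slc25a17 the 1 member called lower in 18. Updating symbols changed 0 symbols, so it gave no separate alternative. With the hybridization controls as a covariate, 0 members were called lower, 0 other peroxisomal proteins were called (2 without the covariate) and 60 genes in all against 422. With the least variable probe set of each gene, 1 of the other peroxisomal proteins was called. Leaving out single hearts gave 248 to 512 called genes, with 267 without control 3 and 248, 278 and 262 without doxorubicin 1, 2 and 3. It gave 1 member called higher and 1 lower each time, 2 to 3 other peroxisomal proteins, and a median difference over members of 0.0080 to 0.055 log2, 0.055 being without control 1. The replicate block gave the same 1 and 1 members and 305 called genes. Same-numbered hearts did not vary together (correlations of deviations 0.10, -0.05, -0.11 and -0.25 for numbers 1 to 4, and 0 of 8 hearts correlated best with their own number). Nrip1 and Mpv17l2 lost their calls under the block (adjusted p = 0.0848 and 0.071) and Idi1 with its less variable probe set (0.44). The cause of these changes was not tested. Deposited values carry no detection calls, so dim genes are limited by background.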
